A study of Homo sapiens with 15 samples.

Results

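The transcripts of the mitochondrial genome were followed through 5 sublines of VCaP, an established prostate cancer cell line that carries the TMPRSS2-ERG fusion and responds to androgen. Every gene that the count files place on chromosome M was taken, which gave 37 of the 58381 genes listed: 13 coding genes, 2 rRNA genes and 22 tRNA genes. The data are bulk RNA-seq counts of 15 libraries, 3 for each subline, and every subline was kept in RPMI medium with DCC-FBS. All descend from 1 culture, VCaP-T, which had grown with 10 nM testosterone for 7 months. VCaP-CT came from it by 10 months at 0.1 nM testosterone, and VCaP-CT-ER was then grown out in 10 µM of the antiandrogen enzalutamide. VCaP-CT-BR was grown out of VCaP-CT in the older antiandrogen bicalutamide. VCaP-CT-BR-ER, the multiresistant subline of that branch, was then grown out in enzalutamide once bicalutamide no longer acted. The treatment labels depart from the culture protocol: they give 10 nM testosterone for the 10 months in all derived sublines, and for VCaP-CT-BR they also name enzalutamide after bicalutamide. The derivations are called the androgen-reduction step (VCaP-T to VCaP-CT), the enzalutamide step (VCaP-CT to VCaP-CT-ER), the bicalutamide step (VCaP-CT to VCaP-CT-BR) and the multiresistance step, which led on to VCaP-CT-BR-ER. The sublines were each derived once, so an effect of the treatment cannot be told apart from a difference between these cultures, and p-values measure the spread between the 3 replicates of a subline.

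The mitochondrial genome is a small circle in the organelle that makes most of a cell's ATP. The polymerase POLRMT, with its partners TFAM and TFB2M, reads both strands into long precursor RNAs. Most tRNAs lie between the other genes, and cutting them out of the precursor frees the mRNAs and rRNAs on either side. The mRNAs encode the core of respiratory complex I (the ND genes), complex III (MT-CYB), complex IV (the CO genes) and ATP synthase, or complex V (the ATP genes), which are joined by subunits made from nuclear genes. Normal prostate epithelium is known for secreting citrate in place of oxidising it in this pathway. In the gene map of the files, 28 of the 37 genes lie on the plus strand, among them 12 coding genes and 14 tRNA genes. The 9 on the minus strand are MT-ND6 and 8 tRNA genes. The genes are so tightly packed that 20 of the 36 pairs of neighbours abut and 5 overlap. Fragments that touch both genes of a pair are by default assigned to neither, and the counting was run without a strand setting, so RNA from the opposite strand of a gene is counted with it.

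The reference letters show where that matters for the results below (hg38, all 5′ to 3′, the reference and not the sublines' own mitochondrial DNA). The first is the plus strand at the end of MT-ND5, chrM:14119-14178, where the capitals mark the first 30 bases assigned to MT-ND6, the neighbour on the opposite strand, with no base between the genes.

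MT-ND5 to MT-ND6: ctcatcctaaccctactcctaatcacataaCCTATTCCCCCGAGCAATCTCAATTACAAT

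The next are the pairs of coding genes that share more than 1 base on the plus strand, with the shared bases in capitals: 46 bases of MT-ATP8 and MT-ATP6 in chrM:8517-8582, and 7 bases of MT-ND4L and MT-ND4 in chrM:10745-10781. MT-ATP6 and MT-CO3 share 1 base, which is not printed.

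MT-ATP8 and MT-ATP6: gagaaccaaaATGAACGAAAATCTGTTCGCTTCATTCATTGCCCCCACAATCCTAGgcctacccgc

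MT-ND4L and MT-ND4: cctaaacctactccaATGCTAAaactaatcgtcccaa

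The last are the 3 tRNA genes with the most counts, all on the minus strand and printed on it: MT-TC (chrM:5761-5826, the cysteine tRNA), MT-TY (chrM:5826-5891, tyrosine) and MT-TP (chrM:15956-16023, proline). The capital marks the 1 base that MT-TC and MT-TY share.

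MT-TC: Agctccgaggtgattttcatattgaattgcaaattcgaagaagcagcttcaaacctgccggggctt

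MT-TY: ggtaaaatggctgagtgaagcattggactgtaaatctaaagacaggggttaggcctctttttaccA

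MT-TP: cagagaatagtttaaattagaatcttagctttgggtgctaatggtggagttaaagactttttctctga

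The libraries held 33665716 to 46935279 counts, each of the 15 resembled its own subline most, and 36 of the 37 genes passed the filter on low counts. MT-TN, the asparagine tRNA, had 0 counts in every library. The VCaP markers KLK2, of prostate epithelium, and ERG, of the fusion, were above the filter and moved with the sublines. KLK2 had 14176 to 14556 CPM (a count divided by the library total and scaled as usual) in VCaP-T libraries, 7487 to 8152 CPM in VCaP-CT, 8289 to 9217 CPM in VCaP-CT-ER, 4906 to 5313 CPM in VCaP-CT-BR and 3243 to 3438 CPM in VCaP-CT-BR-ER. Markers of other cell types moved with some sublines: the summed level of 4 fibroblast genes was 6.34 to 7.86 CPM in VCaP-CT libraries and 189 to 219 CPM in those of VCaP-CT-ER, and went from 24.0 to 25.0 CPM before the multiresistance step to between 216 and 248 CPM after it, with COL3A1 under 10 counts in every library. That of 3 endothelial genes reached 16.3 CPM in VCaP-T and at most 0.277 CPM in VCaP-CT-ER, with CDH5 under 10 counts throughout. The neuroendocrine genes CHGA and SYP summed to 32.0 to 34.0 CPM in VCaP-T, 1.82 to 2.40 CPM in VCaP-CT-BR-ER and 4.63 to 6.68 CPM in the other sublines, mostly from SYP, since CHGA had under 10 counts in every library. So had PTPRC and CD3E of leukocytes. Replicate 3 of VCaP-CT stood apart, with 3406 CPM of the nuclear RNA MALAT1 against 923 and 1427 CPM in its fellow replicates. The part of the marker differences in the results was not tested. For replicate 3 of VCaP-CT, results with that library left out are given below for some genes and sums. Fewer mitochondria per cell and less RNA per mitochondrion cannot be told apart in bulk libraries.

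Mitochondrial transcripts took up between 7.18% and 9.56% of a library. Their share was lowest in VCaP-CT, at 7.18, 7.27 and 7.60% of all counts, and highest in VCaP-CT-ER, at 9.17, 9.56 and 9.38%. VCaP-T had 8.16, 8.39 and 8.30%. On the bicalutamide branch the share was 8.27, 7.55 and 7.59% before the multiresistance step and 8.59, 8.58 and 8.94% after it. The ranges of VCaP-CT, VCaP-T and VCaP-CT-ER were apart from each other, whereas VCaP-CT-BR reached into those of VCaP-CT and VCaP-T. Over the 1401400 ways to divide 15 libraries into 5 groups of 3, an exact permutation test of the difference among sublines gave p = 7.85e-06 (adjusted over the 4 sums of genes tested, 3.14e-05). The largest ratio between subline means, VCaP-CT-ER over VCaP-CT, was 1.27.

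The coding genes made up most of this, with 7.38% ± 0.118 (SD, n = 3) of the library in testosterone-grown VCaP-T, 6.76% ± 0.148 in low-testosterone VCaP-CT, 8.58% ± 0.172 in enzalutamide-resistant VCaP-CT-ER, 7.16% ± 0.363 in bicalutamide-resistant VCaP-CT-BR and 7.93% ± 0.201 in multiresistant VCaP-CT-BR-ER (exact permutation test, p = 1.71e-05, adjusted 3.43e-05). The 2 rRNA genes held 0.872% ± 0.0375 in testosterone-grown VCaP-T, 0.573% ± 0.0724 in low-testosterone VCaP-CT, 0.756% ± 0.0327 in enzalutamide-resistant VCaP-CT-ER, 0.627% ± 0.0425 in bicalutamide-resistant VCaP-CT-BR and 0.747% ± 0.0192 in multiresistant VCaP-CT-BR-ER (exact p = 4.78e-05, adjusted 5.14e-05). The tRNA genes held 0.0320% ± 0.00332 in testosterone-grown VCaP-T, 0.0205% ± 0.00152 in low-testosterone VCaP-CT, 0.0314% ± 0.000386 in enzalutamide-resistant VCaP-CT-ER, 0.0241% ± 0.000798 in bicalutamide-resistant VCaP-CT-BR and 0.0256% ± 0.00082 in multiresistant VCaP-CT-BR-ER (exact p = 5.14e-05, adjusted 5.14e-05). By their means all 3 classes were lowest in VCaP-CT, but the coding genes were highest in VCaP-CT-ER and the rRNA and tRNA genes in VCaP-T. Between any pair of sublines the exact test of 3 against 3 libraries cannot go below p = 0.1, and the share of all 37 genes reached that value in the androgen-reduction, enzalutamide and multiresistance steps, where the ranges were apart. The bicalutamide step gave exact p = 0.3 with overlapping ranges.

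**Figure D1:**
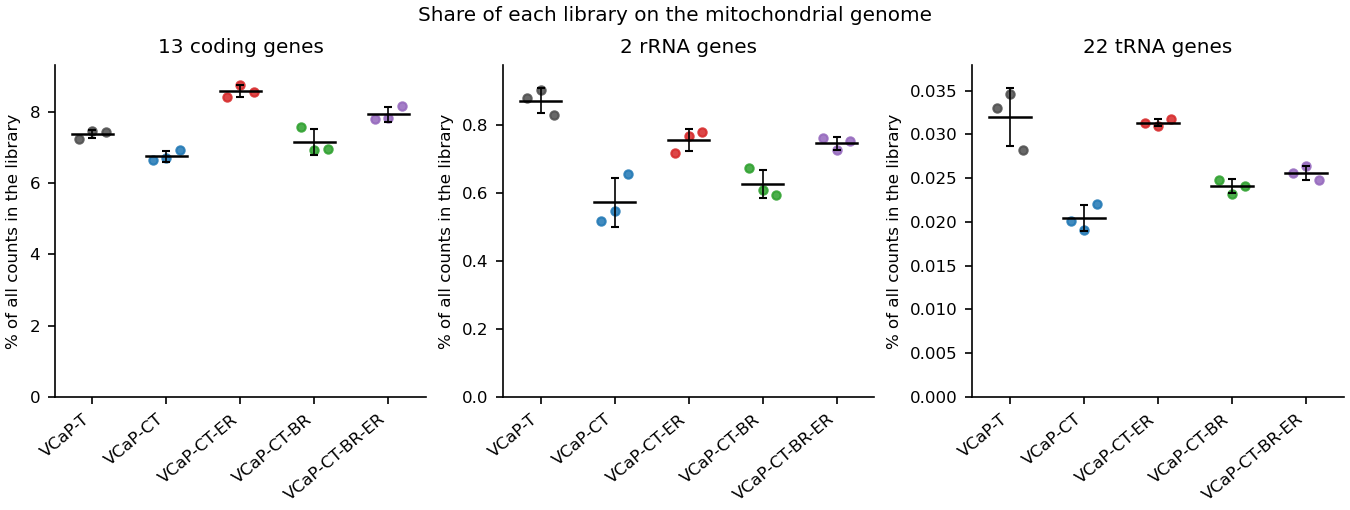
Share of all counts of a library that fell on the 13 coding, 2 rRNA and 22 tRNA genes of the mitochondrial genome (vertical axes, %, each with its own range starting at 0), for the 3 libraries of each subline (points), with their mean (line) and SD (bar). The coding genes were lowest in VCaP-CT at 6.76% and highest in VCaP-CT-ER at 8.58%, whereas the rRNA and tRNA genes had their highest means in VCaP-T.

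The sums of each class were next fitted in place of their members, beside the nuclear genes, with edgeR's quasi-likelihood test. It scales libraries by TMM and adjusts p-values (Benjamini-Hochberg) over all rows tested, which in the fit of single genes were 19621. Changes are given as log2 fold changes ± SE. In the androgen-reduction step the rRNA sum fell (-0.59 ± 0.07, adjusted p = 2.06e-07), as did the tRNA sum (-0.63 ± 0.06, adjusted p = 2.54e-08). The coding sum fell by less (-0.12 ± 0.05, adjusted p = 0.0346), a call that was lost with upper quartile scaling, with only the compared sublines and with a replicate block (adjusted p between 0.0575 and 0.163), and also without replicate 2 of VCaP-T (-0.11, adjusted p = 0.074) or replicate 1 (-0.11, adjusted p = 0.0648) or 2 (-0.11, adjusted p = 0.0578) of VCaP-CT. In the enzalutamide step all 3 sums rose: the coding genes (0.29 ± 0.05, adjusted p = 1.39e-05), the rRNA genes (0.35 ± 0.07, adjusted p = 0.000206) and the tRNA genes (0.56 ± 0.06, adjusted p = 1.68e-07). In the bicalutamide step the tRNA sum rose (0.22 ± 0.06, adjusted p = 0.00782), and the coding sum (0.07 ± 0.05, adjusted p = 0.251) and the rRNA sum (0.11 ± 0.07, adjusted p = 0.19) did not pass the test. Without replicate 1 of VCaP-CT-BR that coding sum was at 0.017, and without replicate 3 of VCaP-CT the rRNA sum passed (0.22, adjusted p = 0.00419). In the multiresistance step the coding sum (0.15 ± 0.05, adjusted p = 0.0106) and the rRNA sum (0.26 ± 0.07, adjusted p = 0.00476) rose, the former not without replicate 3 of VCaP-CT-BR-ER (0.14, adjusted p = 0.0548), and the tRNA sum did not pass (0.09 ± 0.06, adjusted p = 0.258). The change of the tRNA sum differed between the enzalutamide and the multiresistance steps (difference -0.47 ± 0.09, adjusted p = 0.000218). For the coding sum that difference did not pass (-0.14 ± 0.07, adjusted p = 0.0864). VCaP-CT is shared by the first 3 steps, so their values are not independent of each other.

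Gene by gene, 23 of the 36 tested members were called in the androgen-reduction step at an adjusted p under 0.05, where 65.3% of all tested genes were called. Of these, 10 were higher in VCaP-CT and 13 lower (33.1% of all tested genes were higher and 32.2% lower). The enzalutamide step called 17 (60.9% of all genes), with 14 higher (29.6%) and 3 lower (31.2%). The bicalutamide step called 18 (53.2%), with 16 higher (26.1%) and 2 lower (27.0%). The multiresistance step called 16 (42.9%), with 9 higher (21.2%) and 7 lower (21.7%). In both steps out of VCaP-CT few members were lower, while higher and lower genes were nearly equal in number over the whole table. VCaP-CT-BR-ER differed from VCaP-CT-ER, the other endpoint, in 18 members (45.9% of all genes), and the enzalutamide and multiresistance steps differed from each other in 15 (49.7%). Some difference among the 5 sublines was called for 31 (88.9%); those that did not pass were the tRNA genes MT-TF, MT-TS1, MT-TK, MT-TR and MT-TT. Most changes were small: a call with a log2 fold change of at least 1 in size was made for 1, 2, 3 and 2 members in the 4 steps.

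In the androgen-reduction step 8 of the 13 coding genes fell and 4 rose. MT-CYB, the only mitochondrial subunit of complex III, rose the most. It was at 3138, 3209 and 3326 CPM in the VCaP-T replicates and at 4448, 4617 and 4741 CPM in those of VCaP-CT, with no overlap (0.52 ± 0.05, adjusted p = 7.38e-09). The overlapping ATP synthase genes rose as well, MT-ATP8 from 742, 812 and 750.4 to 1033, 955 and 1005 CPM (0.39 ± 0.05, adjusted p = 1.72e-06) and MT-ATP6 from 4265, 4653 and 4405 to 5555, 5257 and 5571 CPM (0.31 ± 0.05, adjusted p = 2.18e-05). All 3 VCaP-CT libraries lay above all 3 VCaP-T libraries for both genes. MT-ND3 of complex I was the other coding gene that rose (0.19 ± 0.06, adjusted p = 0.00775), and it lost its call without replicate 3 of VCaP-CT.

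Among the coding genes that fell were the catalytic subunits of complex IV. MT-CO1 went from 20658, 20976 and 20742 CPM to 17112, 17547 and 17427 CPM (-0.25 ± 0.05, adjusted p = 6.8e-05), and MT-CO2 from 11620.0, 11860.4 and 11525 CPM to 9298, 9314 and 9641 CPM (-0.30 ± 0.04, adjusted p = 3.89e-06). The ranges were apart for both. Their partner MT-CO3 did not pass the test (0.05 ± 0.04, adjusted p = 0.348). Of the 7 complex I genes 6 fell, namely MT-ND1 (-0.20), MT-ND2 (-0.12), MT-ND4L (-0.21), MT-ND4 (-0.28), MT-ND5 (-0.23) and MT-ND6 (-0.39). MT-ND2 was close to the threshold, with an adjusted p of 0.0462, and lost its call when replicate 1 or 2 of either subline was left out.

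The rRNA genes parted. MT-RNR2, the rRNA of the large mitoribosomal subunit, fell from 8332, 8582 and 7875 CPM to 4759, 4943 and 5839 CPM (-0.66 ± 0.07, adjusted p = 2.06e-08), the largest fall of any rRNA or coding gene in the androgen-reduction step. MT-RNR1, the rRNA of the small subunit, had 474, 458 and 431 CPM before it and 411, 537 and 710.2 CPM after it. Replicate 1 of VCaP-CT lay below all of VCaP-T and replicate 3 far above it, and the call of a rise (0.29 ± 0.12, adjusted p = 0.0328) rested on that replicate 3: without it the change was 0.06 ± 0.08, adjusted p = 0.566. The call was also lost without replicate 2 or 3 of VCaP-T. Per base, the ratio of MT-RNR1 to MT-RNR2 was 0.0899 ± 0.00287 in testosterone-grown VCaP-T, 0.172 ± 0.0292 in low-testosterone VCaP-CT, 0.149 ± 0.0112 in enzalutamide-resistant VCaP-CT-ER, 0.156 ± 0.00787 in bicalutamide-resistant VCaP-CT-BR and 0.143 ± 0.00762 in multiresistant VCaP-CT-BR-ER (mean ± SD, n = 3). Every derived library lay above every VCaP-T library in this ratio. Both rRNAs come from the same precursor and enter the ribosome in equal numbers, so these counts cannot be read as numbers of rRNA molecules. Whether polyadenylated RNA was selected or rRNA depleted is not given in the sources used here.

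**Figure D2:**
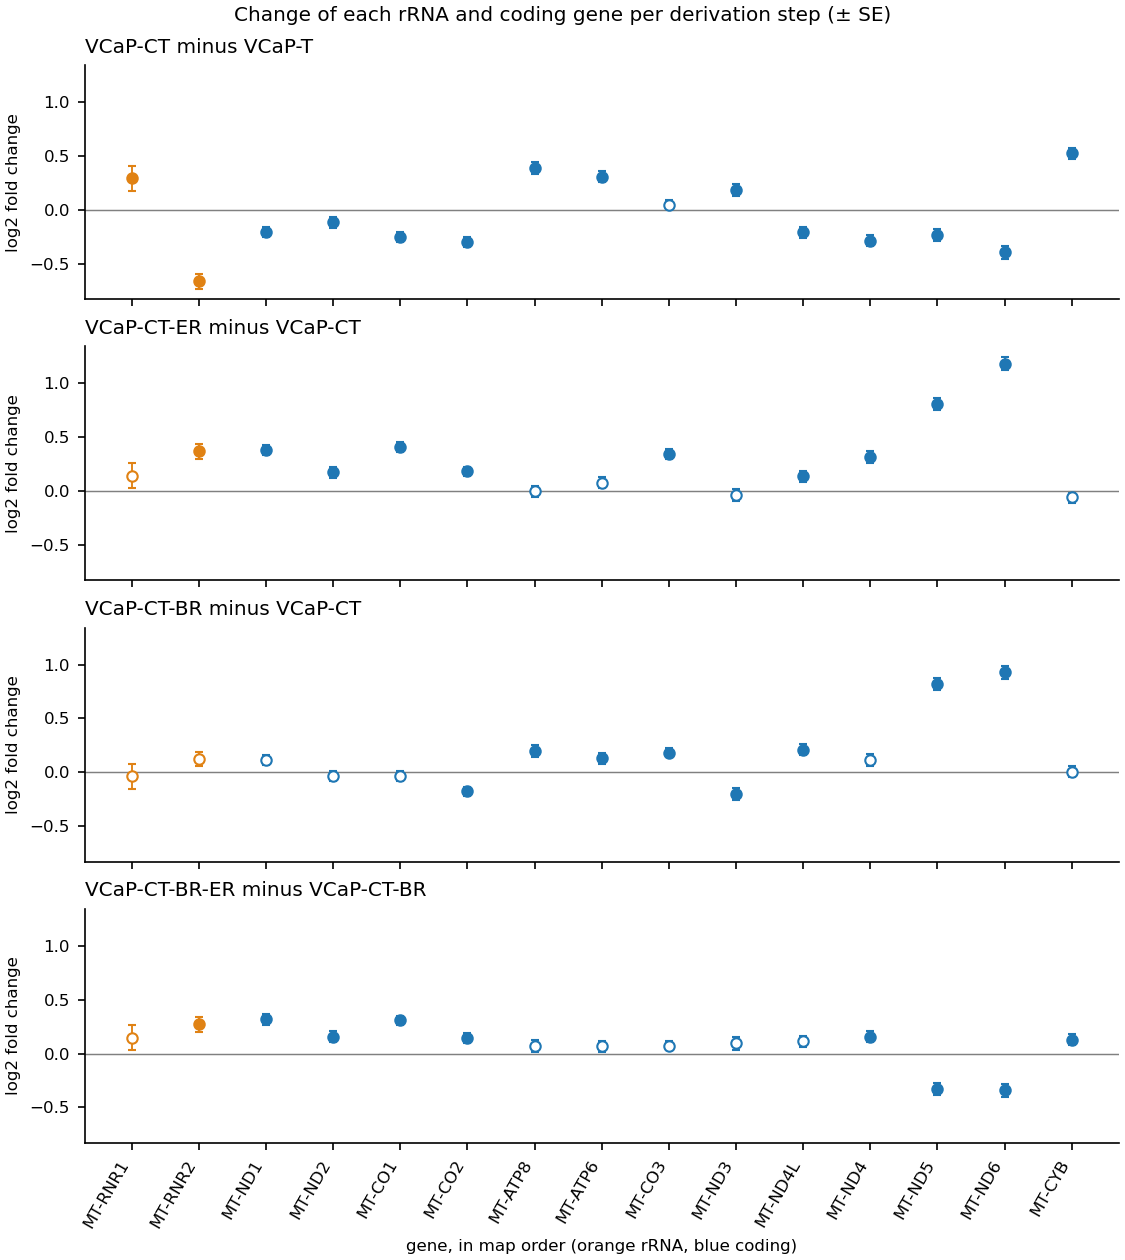
Fitted log2 fold change (vertical axis, ± SE) of the 2 rRNA genes (orange) and 13 coding genes (blue), in their order on the map, for each of the 4 derivation steps. Filled points passed an adjusted p of 0.05 and open points did not. MT-ND5 and MT-ND6 stand above the other genes in the enzalutamide and bicalutamide steps, and they are the coding genes that fell in the multiresistance step.

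MT-ND5 and MT-ND6 had the largest changes of any coding gene in the enzalutamide and bicalutamide steps. MT-ND5 (ENSG00000198786.2, chrM:12337-14148, plus strand) encodes a proton-pumping subunit in the membrane arm of complex I. Its counts were 1982, 2166 and 2154 CPM in testosterone-grown VCaP-T, 1649, 1759 and 1926 CPM in low-testosterone VCaP-CT, 3082, 3239 and 3367 CPM in enzalutamide-resistant VCaP-CT-ER, 3328, 2983 and 3214 CPM in bicalutamide-resistant VCaP-CT-BR and 2564, 2489 and 2511 CPM in multiresistant VCaP-CT-BR-ER. The sublines made resistant directly from VCaP-CT lay above every other library and overlapped each other. The rise was 0.81 ± 0.06, adjusted p = 8.68e-11 in the enzalutamide step and 0.82 ± 0.06, adjusted p = 2.15e-10 in the bicalutamide step. MT-ND5 then fell in the multiresistance step (-0.33 ± 0.06, adjusted p = 7.79e-05), to a level above VCaP-T and below VCaP-CT-BR.

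MT-ND6 (ENSG00000198695.2, chrM:14149-14673, minus strand), another membrane subunit of complex I, spanned a wider range. It had 502, 559 and 556 CPM in testosterone-grown VCaP-T, 389, 398 and 435 CPM in low-testosterone VCaP-CT, 873, 1021 and 981 CPM in enzalutamide-resistant VCaP-CT-ER, 819.9, 738 and 795 CPM in bicalutamide-resistant VCaP-CT-BR and 621, 622 and 609 CPM in multiresistant VCaP-CT-BR-ER. No ranges overlapped between the 5 sublines, with VCaP-CT-ER at the top and VCaP-CT at the bottom. It fell in the androgen-reduction step (-0.39 ± 0.06, adjusted p = 7.26e-06), rose in the enzalutamide step (1.18 ± 0.06, adjusted p = 4.54e-13) and in the bicalutamide step (0.93 ± 0.06, adjusted p = 7.92e-11), and fell in the multiresistance step (-0.34 ± 0.06, adjusted p = 9.53e-05). The enzalutamide and multiresistance steps thus went in opposite directions, and the difference between them was -1.52 ± 0.09, adjusted p = 6.49e-12 for MT-ND6 and -1.14 ± 0.08, adjusted p = 2.57e-10 for MT-ND5. As a difference from the fitted log2 change of the coding sum, MT-ND6 stood at 0.89 and MT-ND5 at 0.52 in the enzalutamide step, and at 0.86 and 0.75 in the bicalutamide step. Without these genes the other 11 coding genes ranged from -0.06 to 0.41 and from -0.20 to 0.21 in log2 fold change in those steps.

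The abutting ends printed above bear on these genes, since they lie on opposite strands and the counts hold no strand. Per base, the ratio of MT-ND6 to MT-ND5 was 0.885 ± 0.00939 in testosterone-grown VCaP-T, 0.791 ± 0.0203 in low-testosterone VCaP-CT, 1.02 ± 0.0576 in enzalutamide-resistant VCaP-CT-ER, 0.853 ± 0.00211 in bicalutamide-resistant VCaP-CT-BR and 0.845 ± 0.0154 in multiresistant VCaP-CT-BR-ER (mean ± SD, n = 3). It was highest in VCaP-CT-ER and lowest in VCaP-CT, with both ranges apart from all others. Counts assigned to MT-ND6 can come from its own mRNA or from RNA of the opposite strand that runs on past MT-ND5, and these cannot be told apart. The ratio of MT-ND5 to its upstream neighbour MT-ND4 was 0.148 ± 0.00508 in testosterone-grown VCaP-T, 0.153 ± 0.00543 in low-testosterone VCaP-CT, 0.216 ± 0.00989 in enzalutamide-resistant VCaP-CT-ER, 0.250 ± 0.00640 in bicalutamide-resistant VCaP-CT-BR and 0.179 ± 0.00754 in multiresistant VCaP-CT-BR-ER. VCaP-T and VCaP-CT overlapped in that ratio, and the other ranges were apart.

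The tRNA genes beside this stretch had few counts and were singled out after their values were seen. Between MT-ND4 and MT-ND5 lie MT-TH (histidine), MT-TS2 (serine) and MT-TL2 (leucine). MT-TS2 had 1.33, 1.30 and 0.849 CPM in testosterone-grown VCaP-T, 1.01, 1.72 and 2.56 CPM in low-testosterone VCaP-CT, 1.62, 1.99 and 1.59 CPM in enzalutamide-resistant VCaP-CT-ER, 3.83, 3.29 and 3.20 CPM in bicalutamide-resistant VCaP-CT-BR and 1.46, 1.51 and 2.16 CPM in multiresistant VCaP-CT-BR-ER. VCaP-CT-BR was above all other libraries. In the bicalutamide step all of MT-TH (0.81), MT-TS2 (0.93) and MT-TL2 (0.58) rose, and in the multiresistance step all 3 fell (MT-TH fell by 0.71 and MT-TL2 fell by 0.57 on the log2 scale). In the enzalutamide step they did not pass the test, with 0.12 for MT-TH, -0.08 for MT-TS2 and 0.17 for MT-TL2. Without replicate 3 of VCaP-CT, MT-TH and MT-TL2 passed there as well, and all 3 lost the call of a rise in the androgen-reduction step. MT-TE, the glutamate tRNA on the far side of MT-ND6 and on its strand, was instead highest in VCaP-CT-ER, at 5.80, 6.15 and 6.72 CPM against 3.53, 3.50 and 2.67 CPM in its source VCaP-CT (0.89 ± 0.13, adjusted p = 3.38e-06). Its rise in the bicalutamide step (0.40 ± 0.13, adjusted p = 0.0147) was lost without replicate 3 of VCaP-CT or of VCaP-CT-BR.

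**Figure D3:**
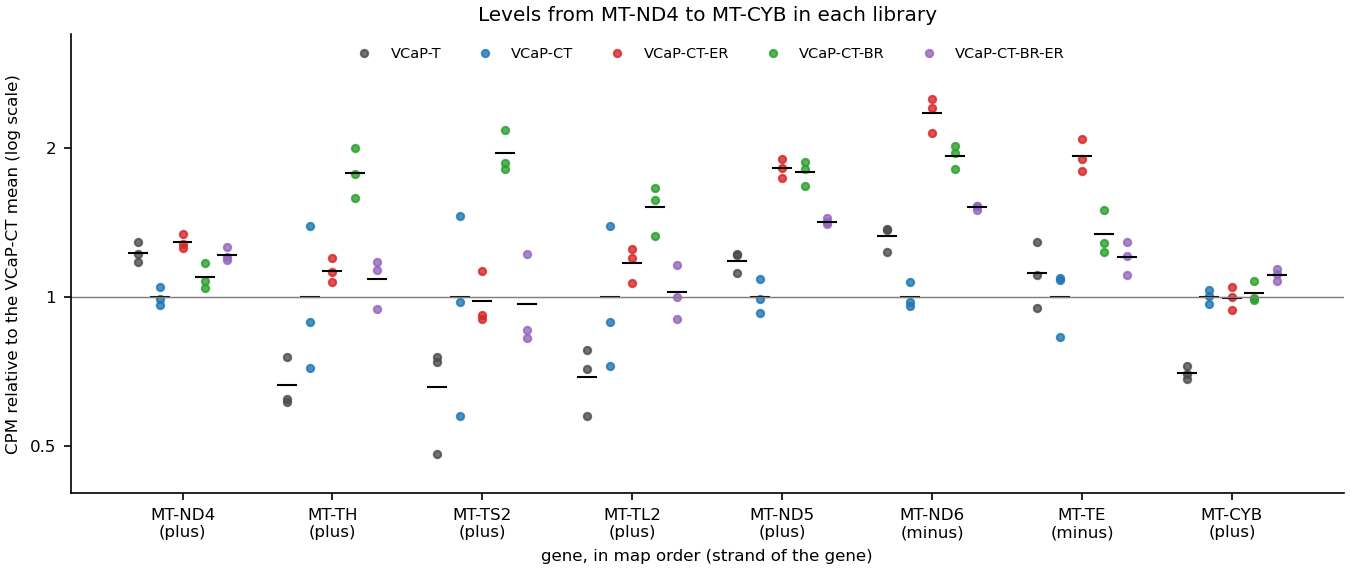
CPM of 8 genes that follow each other on the map from MT-ND4 to MT-CYB, divided by the mean of the 3 VCaP-CT libraries (vertical axis, log scale), with a point for each library, coloured by subline, and a line at each subline's mean. VCaP-CT-ER and VCaP-CT-BR stood above the other sublines for MT-ND5 and MT-ND6, VCaP-CT-BR alone for MT-TS2, and VCaP-T below the others for MT-CYB.

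The other coding genes moved less and in more than 1 pattern. In the enzalutamide step 9 of the 13 coding genes rose and 0 fell. After MT-ND6 and MT-ND5 the largest rise was that of MT-CO1, to 23514, 24186 and 24016 CPM (0.41 ± 0.05, adjusted p = 1.18e-07), followed by MT-ND1, to 4234, 4690.3 and 4533 CPM (0.38 ± 0.05, adjusted p = 1.14e-06). Every VCaP-CT-ER library was above every VCaP-CT library for both. MT-CO3 (0.34), MT-ND4 (0.32), MT-CO2 (0.18), MT-ND2 (0.17) and MT-ND4L (0.14) also rose. The call of MT-ND4L (adjusted p = 0.0272) was lost without replicate 2 of VCaP-CT or replicate 3 of VCaP-CT-ER. The genes that did not pass were those that had risen in the androgen-reduction step, namely MT-CYB (-0.06), MT-ATP8 (-0.0029), MT-ATP6 (0.08) and MT-ND3 (-0.04). MT-RNR2 rose to 6541, 7056 and 7186 CPM (0.37 ± 0.07, adjusted p = 6.93e-05), below all VCaP-T libraries, and MT-RNR1 did not pass (0.14 ± 0.12, adjusted p = 0.299).

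In the bicalutamide step 6 of the 13 coding genes rose and 2 fell. Beside MT-ND5 and MT-ND6 those that rose were MT-ND4L (0.21), MT-ATP8 (0.20), MT-CO3 (0.18) and MT-ATP6 (0.13 ± 0.05, adjusted p = 0.0412), and the call of MT-ATP6 was lost without replicate 2 or 3 of VCaP-CT, among others. MT-ND3 fell from 971, 909.6 and 1070.2 to 895, 849.9 and 851 CPM (-0.20 ± 0.06, adjusted p = 0.00541) and MT-CO2 from 9298, 9314 and 9641 to 8791, 8321 and 8176 CPM (-0.18 ± 0.04, adjusted p = 0.00172). The ranges were apart for each. MT-CO1, which had risen in the enzalutamide step, did not pass here (-0.04 ± 0.05, adjusted p = 0.52), so within 1 subline MT-CO2 had fallen, MT-CO3 had risen and MT-CO1 had no call. MT-RNR1 (-0.04) and MT-RNR2 (0.13) did not pass the test.

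In the multiresistance step 6 coding genes rose and 2, MT-ND5 and MT-ND6, fell. MT-ND1 rose from 3828, 3528 and 3571 to 4461, 4543 and 4562 CPM (0.32 ± 0.05, adjusted p = 2.47e-05) and MT-CO1 from 18344, 16759.9 and 16278 to 21090.1, 20669 and 21548 CPM (0.31 ± 0.05, adjusted p = 1.33e-05), in both cases with all 3 libraries above all 3. MT-ND4 (0.16), MT-ND2 (0.16), MT-CO2 (0.14) and MT-CYB (0.13) rose by less, and all 4 lost their calls without replicate 3 of either subline. MT-RNR2 rose (0.27 ± 0.07, adjusted p = 0.00248). Between the endpoints, MT-ND6 (-0.59), MT-ND5 (-0.32), MT-CO2 (-0.22) and MT-CO1 (-0.14) were lower in VCaP-CT-BR-ER than in VCaP-CT-ER, and MT-ATP8 (0.27), MT-CYB (0.20) and MT-ND4L (0.19) higher.

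Per kilobase of gene, the 3 complex IV genes stood above all other coding genes and MT-ND5 and MT-ND6 below all others in every subline. Among the complex IV genes the order changed. In VCaP-T, MT-CO2 led with 17059 ± 253 CPM per kilobase, ahead of MT-CO1 with 13484 ± 107 and MT-CO3 with 11855 ± 164 (mean ± SD, n = 3), and no ranges overlapped. In VCaP-CT-BR, MT-CO3 led with 13962 ± 593 CPM per kilobase, ahead of MT-CO2 with 12323 ± 470.5 and MT-CO1 with 11107 ± 701, again without overlap. VCaP-CT-ER lay between, with MT-CO2 and MT-CO3 overlapping at the top, and in VCaP-CT-BR-ER it was MT-CO1 and MT-CO2 that overlapped, below MT-CO3. The ratio of MT-CO2 to MT-CO3 per base was 1.44 ± 0.0245 in testosterone-grown VCaP-T, 1.13 ± 0.0243 in low-testosterone VCaP-CT, 1.01 ± 0.0115 in enzalutamide-resistant VCaP-CT-ER, 0.883 ± 0.00570 in bicalutamide-resistant VCaP-CT-BR and 0.927 ± 0.0106 in multiresistant VCaP-CT-BR-ER, and none of these 5 ranges overlapped. MT-ATP6, which sits between these genes on the map, was 0.382 ± 0.0128 of MT-CO2 per base in VCaP-T and 0.720 ± 0.0287 in VCaP-CT-BR. At the bottom of the order, MT-ND5 was above MT-ND6 without overlap in 4 sublines and overlapped it in VCaP-CT-ER.

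As a share of all mitochondrial counts, MT-CO1 was the largest part, with 25.1% ± 0.192 in testosterone-grown VCaP-T, 23.6% ± 0.632 in low-testosterone VCaP-CT, 25.5% ± 0.191 in enzalutamide-resistant VCaP-CT-ER, 21.9% ± 0.424 in bicalutamide-resistant VCaP-CT-BR and 24.3% ± 0.267 in multiresistant VCaP-CT-BR-ER (SD, n = 3). MT-ND6 had the widest span between subline means, from 0.554% ± 0.0161 in VCaP-CT up to 1.02% ± 0.0615 after the enzalutamide step, a ratio of 1.84. The spans of MT-ND5 (1.68) and MT-CYB (1.61) came next, and those of MT-ND2 and MT-ND4 (both 1.09) were the narrowest. A share also moves when other genes of the same total move, so these spans have no test. MT-CYB held 3.89% ± 0.0995 in VCaP-T and 6.26% ± 0.0816 in VCaP-CT, and MT-RNR2 went the other way, from 9.98% ± 0.425 to 7.04% ± 0.565. All tRNA genes together held 0.263% to 0.413% of mitochondrial counts over the 15 libraries.

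Of the 158385 counts on tRNA genes in all libraries, 74.5% fell on MT-TC, MT-TP and MT-TY, and 77.7% on the 8 minus-strand genes. The tRNA genes span 59 to 75 bases, so a fragment longer than its tRNA gene can touch a neighbour, and 17 of the 22 genes were under 10 CPM in every library. MT-TC (ENSG00000210140.1) had 160.1, 165 and 119.8 CPM in testosterone-grown VCaP-T, 64.5, 57.9 and 71.7 CPM in low-testosterone VCaP-CT, 140.2, 136 and 147 CPM in enzalutamide-resistant VCaP-CT-ER, 79.1, 72.9 and 73.6 CPM in bicalutamide-resistant VCaP-CT-BR and 92.7, 95.5 and 83.6 CPM in multiresistant VCaP-CT-BR-ER. VCaP-T and VCaP-CT-ER overlapped and lay above all other sublines. It fell in the androgen-reduction step (-1.19 ± 0.10, adjusted p = 6.02e-10) and rose in the enzalutamide step (1.07 ± 0.10, adjusted p = 3.8e-09). In the multiresistance step the rise was smaller (0.27 ± 0.10, adjusted p = 0.0241) and was lost without replicate 2 or 3 of VCaP-CT-BR or replicate 1 or 2 of VCaP-CT-BR-ER. The difference between the enzalutamide and multiresistance steps was -0.80 ± 0.13, adjusted p = 4.66e-05.

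MT-TP (ENSG00000210196.2) had 78.7, 78.6 and 69.0 CPM in testosterone-grown VCaP-T, 45.1, 48.3 and 51.5 CPM in low-testosterone VCaP-CT, 80.5, 83.6 and 82.8 CPM in enzalutamide-resistant VCaP-CT-ER, 57.1, 47.5 and 52.0 CPM in bicalutamide-resistant VCaP-CT-BR and 51.5, 49.6 and 54.1 CPM in multiresistant VCaP-CT-BR-ER. In these CPM VCaP-CT-ER was above all other sublines, VCaP-T came next, and the remaining 3 overlapped. With TMM scaling VCaP-CT-ER (78.2 to 81.6 CPM) and VCaP-T (68.8 to 79.8 CPM) overlapped as well. It fell in the androgen-reduction step (-0.63 ± 0.07, adjusted p = 7.81e-08) and rose in the enzalutamide step (0.72 ± 0.07, adjusted p = 1.37e-08), and in the multiresistance step it did not pass (-0.01 ± 0.07, adjusted p = 0.959). MT-TY, which shares a base with MT-TC, moved less. It fell in the androgen-reduction step (-0.30 ± 0.06, adjusted p = 0.000326), did not pass in the enzalutamide step (0.10 ± 0.06, adjusted p = 0.195) and rose in the multiresistance step (0.22 ± 0.06, adjusted p = 0.00672). Per base the ratio of MT-TC to MT-TY was 4.17 ± 0.671 in testosterone-grown VCaP-T, 2.25 ± 0.169 in low-testosterone VCaP-CT, 4.44 ± 0.398 in enzalutamide-resistant VCaP-CT-ER, 2.48 ± 0.157 in bicalutamide-resistant VCaP-CT-BR and 2.57 ± 0.0981 in multiresistant VCaP-CT-BR-ER, so these neighbours on 1 strand did not keep a fixed ratio.

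On the plus strand, MT-TL1 (leucine), which follows MT-RNR2, and MT-TI (isoleucine), which follows MT-ND1, had the most counts of the tRNA genes there, and they were singled out after their values were seen. MT-TL1 had 17.7, 21.0 and 19.2 CPM in testosterone-grown VCaP-T, 24.2, 19.2 and 22.3 CPM in low-testosterone VCaP-CT, 17.5, 16.0 and 17.7 CPM in enzalutamide-resistant VCaP-CT-ER, 27.9, 28.8 and 29.2 CPM in bicalutamide-resistant VCaP-CT-BR and 30.8, 31.6 and 30.8 CPM in multiresistant VCaP-CT-BR-ER. The sublines of the bicalutamide branch were above all others. It fell in the enzalutamide step (-0.41 ± 0.08, adjusted p = 0.000118) and rose in the bicalutamide step (0.37 ± 0.08, adjusted p = 0.000381). MT-TI also fell in the enzalutamide step (-0.35 ± 0.10, adjusted p = 0.00569), as did its overlapping neighbour MT-TQ (glutamine) on the opposite strand (-0.67 ± 0.14, adjusted p = 0.000395). The genes MT-RNR2 and MT-ND1 beside them rose in that step, as given above.

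The tRNA genes with the largest changes had few counts. MT-TW (tryptophan), with 5 to 21 counts in a library, rose in the bicalutamide step (1.40 ± 0.33, adjusted p = 0.00115) and fell in the multiresistance step (-1.63 ± 0.33, adjusted p = 0.000372). MT-TA (alanine), with 4 to 25 counts, rose in the bicalutamide step (1.30 ± 0.41, adjusted p = 0.0106), and so did MT-TD (aspartate), with 6 to 27 counts (1.24 ± 0.40, adjusted p = 0.0122). MT-TA and MT-TD lost these calls without replicate 1 of VCaP-CT-BR. Of the 21 tested tRNA genes, 10 rose and 0 fell in the bicalutamide step. The counts were 5 up and 4 down in the androgen-reduction step, 4 up and 3 down in the enzalutamide step, and 2 up and 5 down in the multiresistance step. MT-TG (glycine) rose in the androgen-reduction step (0.88 ± 0.18, adjusted p = 0.000294) and fell in the multiresistance step (-0.94 ± 0.17, adjusted p = 0.000117). MT-TM (methionine) rose in the bicalutamide step (0.39 ± 0.13, adjusted p = 0.0158), as did MT-TS1 (serine, 0.85 ± 0.34, adjusted p = 0.0396), which lost its call without replicate 1 or 2 of VCaP-CT-BR, replicate 3 of VCaP-CT, or replicate 2 of VCaP-CT-ER or VCaP-CT-BR-ER. MT-TT (threonine) rose in the enzalutamide step (0.46 ± 0.16, adjusted p = 0.0192) and lost that call without replicate 1 of VCaP-CT or replicate 2 of VCaP-CT-ER. MT-TF (phenylalanine), MT-TV (valine), MT-TK (lysine) and MT-TR (arginine) had no call in any of the 4 steps. MT-TR passed in the androgen-reduction step without replicate 1 of VCaP-CT, in the bicalutamide step without replicate 3 of VCaP-CT, and in the multiresistance step without either of these or without replicate 2 of VCaP-CT-BR-ER.

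**Figure D4:**
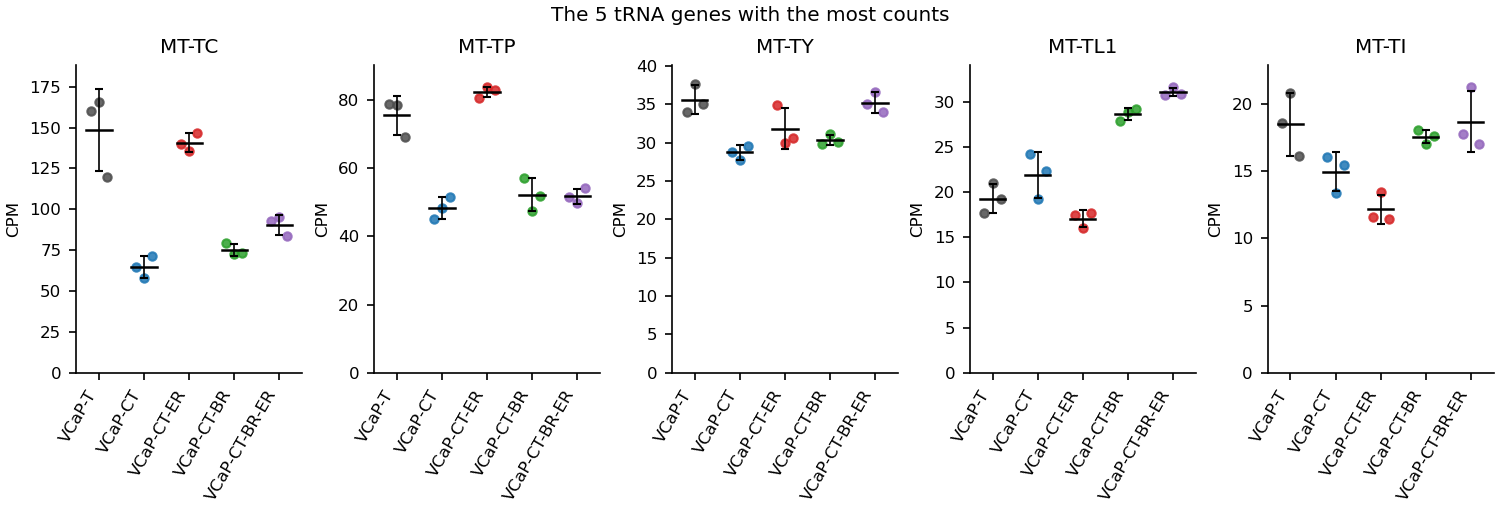
CPM (vertical axes, each starting at 0) of the 5 tRNA genes with the most counts in the 3 libraries of each subline (points), with mean (line) and SD (bar). MT-TC and MT-TP were high in VCaP-T and VCaP-CT-ER, at 120 to 165 and 69.0 to 83.6 CPM, and MT-TL1 and MT-TI had their lowest means in VCaP-CT-ER.

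Nuclear subunits of the same complexes were counted beside the mitochondrial ones. In the multiresistance step 5 of 72 tested nuclear subunits of complexes I, III, IV and V rose and 38 fell, where 21.2% and 21.7% of all tested genes did, with a median log2 fold change of -0.17 against 0.003 over all genes, and 6 of 13 mitochondrial subunits rose and 2 fell. In complex IV, 10 of 11 nuclear subunits fell (median -0.25), whereas MT-CO1 and MT-CO2 rose. In the enzalutamide step 14 nuclear subunits rose and 28 fell (29.6% and 31.2% of all genes, median -0.06 against -0.02), and 9 mitochondrial subunits rose. The androgen-reduction step had 36 nuclear subunits that rose and 14 that fell (33.1% and 32.2% of all genes, median 0.16 against 0.03), and the bicalutamide step 35 and 6 (26.1% and 27.0% of all genes, median 0.14 against -0.02). The difference between nuclear and mitochondrial subunits was not tested. The largest rise of a nuclear complex I subunit in the multiresistance step was that of NDUFS6 (2.34), which lies next to MRPL36 on chromosome 5.

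**Figure D5:**
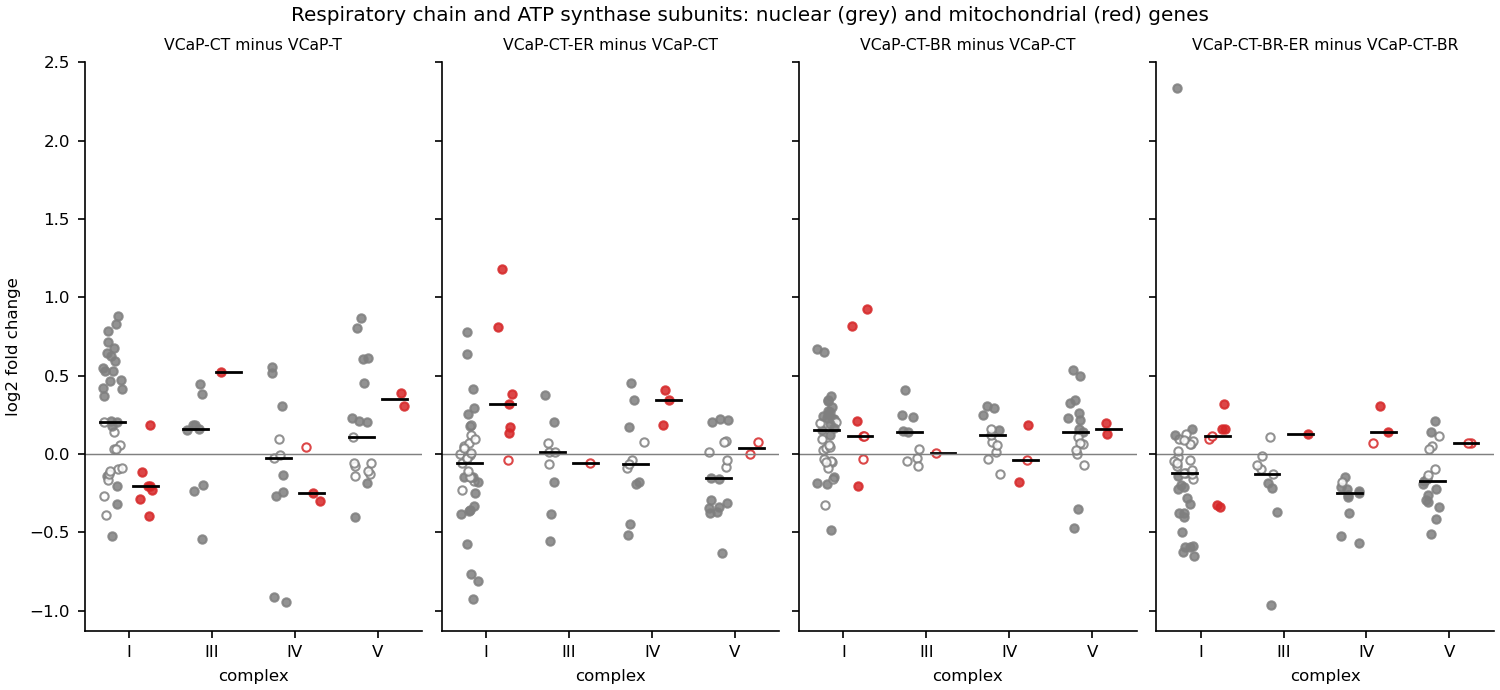
Fitted log2 fold changes (vertical axis) of subunits of respiratory complexes I, III and IV and of ATP synthase (V) in the 4 derivation steps, with nuclear genes in grey and mitochondrial genes in red. A filled point passed an adjusted p of 0.05, and lines give medians. In the multiresistance step 10 of 11 nuclear complex IV genes fell while 2 of the 3 mitochondrial ones rose.

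The machinery that copies, reads and processes the mitochondrial genome is encoded in the nucleus. POLRMT did not pass in the first 3 steps and rose in the multiresistance step (0.29 ± 0.11, adjusted p = 0.0343). TFAM, which packs and activates the genome, rose from 61.4, 70.9 and 65.4 CPM in VCaP-T to 96.9, 83.0 and 95.8 CPM in VCaP-CT (0.49 ± 0.07, adjusted p = 2.26e-06), the subline with the smallest mitochondrial share, and again in the bicalutamide step (0.40 ± 0.07, adjusted p = 4.69e-05). TFB2M rose in the bicalutamide step (0.22) and fell in the multiresistance step (-0.20), and the elongation factor TEFM rose in the bicalutamide step (0.44). LRPPRC, which stabilises mitochondrial mRNAs, fell from 511, 545 and 513 to 316, 291 and 328 CPM in the androgen-reduction step (-0.74 ± 0.05, adjusted p = 1.13e-10), the largest change of these 8 genes in the 4 steps. Its partner SLIRP did not pass there (0.01) and rose in the enzalutamide (0.23) and bicalutamide (0.30) steps. The DNA polymerase POLG fell in the bicalutamide step (-0.18), and the helicase TWNK rose in the androgen-reduction (0.25) and multiresistance (0.18) steps.

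Other regulators moved more. PPARGC1A, a coactivator of mitochondrial biogenesis, had 6.57, 7.91 and 8.16 CPM in testosterone-grown VCaP-T, 0.0891, 0.367 and 0.358 CPM in low-testosterone VCaP-CT, 3.64, 3.41 and 3.37 CPM in enzalutamide-resistant VCaP-CT-ER, 0.492, 0.758 and 0.768 CPM in bicalutamide-resistant VCaP-CT-BR and 0.631, 0.647 and 0.545 CPM in multiresistant VCaP-CT-BR-ER. It fell in the androgen-reduction step (-4.75 ± 0.22, adjusted p = 4.53e-14) and rose in the enzalutamide step (3.59 ± 0.24, adjusted p = 3.01e-11), each time between a higher group and one near 0. It also rose in the bicalutamide step (1.27 ± 0.32, adjusted p = 0.00243), there between low levels, and was lower in VCaP-CT-BR-ER than in VCaP-CT-ER (-2.47). ESRRA, a nuclear receptor that works with it, fell in the enzalutamide step (-2.26 ± 0.10, adjusted p = 4.84e-14), in the bicalutamide step (-1.03) and in the multiresistance step (-0.93 ± 0.10, adjusted p = 1.54e-07). MTERF4, which takes part in building the mitoribosome, had 53.2, 51.0 and 53.3 CPM in testosterone-grown VCaP-T, 42.3, 35.8 and 39.0 CPM in low-testosterone VCaP-CT, 79.4, 75.4 and 78.0 CPM in enzalutamide-resistant VCaP-CT-ER, 75.1, 74.3 and 74.7 CPM in bicalutamide-resistant VCaP-CT-BR and 53.7, 60.6 and 56.2 CPM in multiresistant VCaP-CT-BR-ER. It rose in the bicalutamide step (0.92 ± 0.06, adjusted p = 8.92e-11) and in the enzalutamide step (0.94 ± 0.06, adjusted p = 1.79e-11), and the other steps were at -0.42 and -0.39.

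The remaining genes of these lists chosen by the size of their change were the oligoribonuclease REXO2 (1.62), the ribosomal protein MRPS6 (2.02) and the mitochondrial thymidine kinase TK2 (-1.12) in the androgen-reduction step, and the carrier SLC25A36 (1.03) and the ribosomal protein MRPL12 (-0.99) in the enzalutamide step. In the bicalutamide step MRPL10 fell (-0.65). In the multiresistance step SDHA, the catalytic subunit of complex II, rose from 112, 119.6 and 119 to 822, 837 and 802 CPM (2.82 ± 0.05, adjusted p = 2.8e-20). MRPL36 rose as well (2.62), as did NDUFS6 (2.34), its neighbour on the chromosome. Whether the rise of SDHA belongs with theirs was not tested. MRPL14 (-1.39) and MRPS18A (-1.28) fell. TRMT5, a tRNA methyltransferase, was lower in VCaP-CT-BR-ER than in VCaP-CT-ER (-0.62).

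Of all tested genes 33.1% rose and 32.2% fell in the androgen-reduction step, 29.6% and 31.2% in the enzalutamide step, 26.1% and 27.0% in the bicalutamide step, and 21.2% and 21.7% in the multiresistance step. By list, 40 of 82 tested mitochondrial ribosomal proteins rose and 19 fell in the androgen-reduction step (median log2 fold change 0.17, against 0.03 over all genes), the step in which MT-RNR2 fell. They split 18 up and 29 down in the enzalutamide step, 37 up and 6 down in the bicalutamide step, and 4 up and 21 down in the multiresistance step. Of the 43 genes of RNA processing, stability and decay, 21 rose and 9 fell, 14 rose and 12 fell, 20 rose and 5 fell, and 6 rose and 10 fell in the 4 steps in that order. For the 15 genes of transcription and its regulators the counts were 4 up and 4 down, 5 and 4, 9 and 3, and 1 and 8. For the 16 of genome replication they were 7 and 6, 6 and 3, 8 and 3, and 4 and 2. For the 19 translation factors they were 8 and 9, 7 and 4, 6 and 2, and 1 and 5. Of the 4 subunits of complex II, which has no mitochondrially encoded part, 1 rose and 1 fell, 1 and 2, 2 and 2, and 1 and 1.

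Nuclear copies of mitochondrial genes, whose sequence is close enough to exchange reads with them, held 0.0681% to 0.0935% of a library. Of the 404 copies listed, 269 had no count in any library, and 98.7% of their counts were on 3 genes of chromosome 1. MTATP6P1 went from 473, 506 and 483 CPM in VCaP-T to 649.5, 623 and 646 CPM in VCaP-CT, beside 4265, 4653 and 4405 CPM and 5555, 5257 and 5571 CPM of MT-ATP6. MTCO1P12 had 97.1, 94.0 and 91.8 CPM before the androgen-reduction step, 73.6, 73.5 and 69.9 CPM after it and 107, 113 and 103 CPM after the enzalutamide step, and MT-CO1 was lower and then higher in the same order. MTND2P28 lay between 96.5 and 111 CPM in all libraries. How reads with several matches were treated is not given in the sources used here. The split between a gene and its copy is therefore uncertain for MT-ATP6, MT-CO1 and MT-ND2. The copies MTND2P28, MTCO1P12 and MTATP6P1 start at 629640, 631074 and 633696 of chromosome 1. Their spacing is almost that of the genes, which start at 4470, 5904 and 8527. Genes between these on the map, among them MT-TN, MT-TC, MT-TY, MT-CO2 and MT-ATP8, may share that uncertainty, which was not tested.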

How the data were processed

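Bulk RNA-seq was deposited as 15 tables of counts, 1 per library. Per the file headers, the authors counted fragments per gene with featureCounts 1.6.2, by exon and gene, and per their methods the paired-end reads had been aligned to GRCh38 with STAR 2.5.4b. The deposited counts were used as they are, with no value rescaled. Genes on chromosome M were selected, and shares of the library, CPM and CPM per kilobase were computed with pandas 2.3.3. Differences were tested with edgeR 4.0.16 in R 4.3.3 (filterByExpr at a minimum count of 10, TMM, quasi-likelihood fit over all 15 libraries, Benjamini-Hochberg over 19621 genes, threshold 0.05). Class sums entered a separate fit in place of their member genes. Shares were tested by two-sided exact permutation tests. DESeq2 1.42.0, other scalings, filters and sample sets, and leaving out each library, served as alternatives. The code was tested on simulated data. The members and lists were chosen with earlier results of these data known. All coding and rRNA genes, the 3 tRNA genes and 3 nuclear copies with the most counts, and tRNA genes called with a log2 fold change of at least 1 in size are named, and from each list comparison the 2 largest rises and the 2 largest falls among those called (average log2 CPM of at least 1), plus 8 core genes. Samples were grouped by their titles. Counting intervals would cover counting error only and are not given, since replicates carry the error. Some marker genes are not reported here.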

Additional observations from a re-analysis of the deposited data

Results flagged for a closer look

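The following results are given because the change in the enzalutamide step (VCaP-CT-ER against VCaP-CT) and the change in the multiresistance step (VCaP-CT-BR-ER against VCaP-CT-BR) differed by edgeR's test of the difference itself, at an adjusted p under 0.05. Over all tested genes 49.7% passed this test. Values are the log2 change in the multiresistance step minus that in the enzalutamide step.

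Among the coding genes the difference was -1.52 for MT-ND6 and -1.14 for MT-ND5, both of complex I. It was -0.27 for MT-CO3 of complex IV, and 0.19 for MT-CYB of complex III.

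The sum of the tRNA genes differed by -0.47. Negative differences were found for MT-TW (-1.83), MT-TE (-1.04), MT-TS2 (-0.92), MT-TH (-0.83), MT-TC (-0.80), MT-TL2 (-0.74), MT-TP (-0.72) and MT-TT (-0.58). Positive differences were found for MT-TQ (0.60), MT-TL1 (0.53) and MT-TI (0.45). MT-TT showed no difference past the threshold in the test among the 5 sublines.

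Among the nuclear genes named, PPARGC1A differed by -3.74 and MTERF4 by -1.33. MRPL36 (2.86) and SDHA (3.27) differed in the other direction.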

How the results depend on the processing

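None of the values compared here changed sign past its threshold under any alternative. Of the comparisons of class sums 382 of 396 stayed on their side of the threshold. Of those of single members 2764 of 2880 did so. These members were the coding and rRNA genes and the tRNA genes MT-TC, MT-TP, MT-TY, MT-TW, MT-TA, MT-TD and MT-TS2. The remaining tRNA genes were not part of this count. Of the differences in shares between sublines 155 of 160 moved by less than the spread between replicates. Of these, 16 were those of the replicate block, which keeps the main difference by construction. Of the comparisons of composition within the mitochondrial total 31 of 36 were labelled unchanged. Spans of shares were judged there by the spread between replicates, and counts of genes with ranges apart by a fixed ratio. With a log2 fold change of at least 1 also required, the members called were 1, 2, 3 and 2 in the 4 steps, 0 between the endpoints and 4 for the difference between the enzalutamide and multiresistance steps. The coding sum lost its call in the androgen-reduction step with upper quartile scaling (-0.078), with only the sublines compared (-0.12) and with the replicate block (-0.12). Without the filter on low counts the rRNA sum passed in the bicalutamide step (0.12) and the coding sum between the endpoints (-0.087). The difference of the coding sum between the enzalutamide and multiresistance steps passed with DESeq2 (-0.15), with no filter (-0.16) and with only the sublines compared (-0.15). The share of all 37 genes in the enzalutamide step moved from 2.02 percentage points to 2.41 of counts on nuclear genes and 1.71 of TMM-scaled counts, that of the coding genes to 2.18 and 1.54, and that of the tRNA genes to 0.0125 of counts on nuclear genes.

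Leaving out each library in turn gave a coding sum between -0.14 and -0.11 in the androgen-reduction step, between 0.017 and 0.088 in the bicalutamide step and between 0.14 and 0.21 in the multiresistance step, an rRNA sum between 0.049 and 0.22 in the bicalutamide step, and a difference of the rRNA sum between the enzalutamide and multiresistance steps between -0.19 and -0.032. The calls of class sums lost in this way were those of the coding sum in the androgen-reduction step (without VCaP-T replicate 2, VCaP-CT replicate 1 or VCaP-CT replicate 2) and in the multiresistance step (without VCaP-CT-BR-ER replicate 3), and those gained, both without VCaP-CT replicate 3, were of the rRNA sum in the bicalutamide step and in the difference between the enzalutamide and multiresistance steps. The members called ranged from 17 to 23, 16 to 20, 14 to 21 and 11 to 18 in the 4 steps. The lowest of these were 17 without VCaP-CT replicate 3, 14 without VCaP-CT-BR replicate 1 and 11 without VCaP-CT-BR replicate 3.

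Replicate numbers did not pair the samples. The correlation of deviations averaged -0.0076 between samples that share a number and 0.0038 between samples that do not, and in 0 of 10 pairs of sublines were all same-numbered values above 0.1. With the replicate block 21, 17, 17 and 15 members were called in the 4 steps, against 23, 17, 18 and 16 without it. With 4 to 27 counts in a library, MT-TW, MT-TA and MT-TD are limited by depth.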
